A study of Mus musculus with 55 samples.

Results

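Transcription factors read the state of a tissue from DNA, and the genes described here are the members of the main transcription factor families that the deposited RNA tables of this liver study list. Members were chosen by gene symbol alone: nuclear receptors and their PPAR coactivators, FOX, HNF, C/EBP and GATA factors, AP-1, ATF and EGR factors, CNC-bZIP, BACH and MAF factors, KLF factors, SOX, SNAI and ZEB factors, MYC, ID, HES, HEY and OLIG factors, and RUNX and TEAD factors. The rule found 45 of the 4113 genes that the tables list. Of these, 32 stood only in the table of Setd8-LKO + TCPOBOP against WT untreated, 3 only in the table of WT + TCPOBOP against WT untreated, and 10 in both. No HNF, HEY or ZEB symbol was listed. Junos, an antisense transcript, and Ppargc1a and Ppargc1b, coactivators without a DNA-binding domain of their own, entered through their symbols.

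The study examined mouse liver after loss of the histone H4 lysine 20 methyltransferase Setd8 in hepatocytes. Setd8-LKO mice carried a floxed Setd8 gene and a Cre recombinase driven by the albumin promoter, which is active in hepatocytes. Setd8-LKO mice and a group of wild type (WT) mice received 1 intraperitoneal dose of 3 mg/kg TCPOBOP, a mitogen that activates the nuclear receptor CAR, and livers were taken after 24 h from mice aged 45 to 50 days. The WT untreated group was the control. Its labels state no treatment, while the methods mention mock-injected controls. RNA came from whole liver of 5 WT untreated, 5 WT + TCPOBOP and 4 Setd8-LKO + TCPOBOP samples, which the study describes as biological replicates. Genotype and treatment changed together between Setd8-LKO + TCPOBOP and WT untreated, so their parts cannot be told apart in that comparison. In whole liver, fewer cells of a type and less RNA per cell cannot be told apart either.

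As background, some AP-1, ATF, EGR and KLF factors, Jun and Fos among them, are induced within minutes to hours by growth factors and stress. Foxm1 and Myc drive the transcription of cell cycle genes. C/EBPalpha, PPARalpha and the circadian repressor Nr1d1 belong to the network that keeps mature hepatocytes engaged in metabolism. SOX9, SOX4, the TEAD factors and the RUNX factors are better known from biliary, progenitor, stromal and blood cells, so their levels in whole liver also follow the cell types present.

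The sums of raw counts over the listed genes ranged from 11238950 to 12780869 in WT untreated and from 5734065 to 8231255 in Setd8-LKO + TCPOBOP in the first table. In the table of WT + TCPOBOP they ranged from 1389901 to 1849046 in WT untreated and from 2609310 to 3706582 in WT + TCPOBOP. These sums cover selected genes and are not the depth of the libraries. The column names place the libraries in 2 sequencing runs. Run A held WT untreated replicates 3, 4 and 5, Setd8-LKO replicate 4 and WT + TCPOBOP replicates 1, 2 and 3, and run B held the others. Kmt5a, the gene of Setd8, had 563 to 761 normalized counts in WT untreated and 1313 to 1465 in Setd8-LKO libraries, and these gene counts do not single out the floxed exon, so they do not check the deletion. Of the hepatocyte markers that were listed, 6 of 8 fell in Setd8-LKO and 1, the CAR target Cyp3a11, rose. Their summed normalized counts were 1270760 to 2048962 in WT untreated and 672057 to 915836 in Setd8-LKO. Listed markers of some other cells rose. They were 4 of 5 tested cholangiocyte markers (summed over the 6 listed, 360 to 602 against 1433 to 7262), 4 of 4 listed stellate cell and fibroblast markers (716 to 1473 against 2499 to 7350) and 2 of 2 listed macrophage markers (112 to 332 against 587 to 863). Of 8 endothelial markers 1 was listed, Vwf, which rose. The table holds only genes that the authors selected on these libraries. It listed 4 of the 8 stellate cell and fibroblast markers and 2 of the 10 macrophage markers, and the unlisted ones are not counted. Both listed B cell markers fell, both neutrophil markers were not called, and no T or NK cell marker was listed. The part of these cell types in the levels of the transcription factors was not tested.

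In the comparison of Setd8-LKO + TCPOBOP with WT untreated, 24 members rose, 13 fell and 3 did not pass the test. Sox4, a factor of progenitor cells, the stress factor Atf3, the cell cycle factor Foxm1, Gata3 and the early response factors Jun and Klf6 rose most, and the bHLH factors Hes6 and Olig1, the FOX factor Foxq1 and the C/EBP factors Cebpe and Cebpa fell most. Adjusted p-values come from the quasi-likelihood test of edgeR, corrected by the method of Benjamini and Hochberg, and a gene was called where this value was under 0.05 and the log2 fold change was 1 or more in either direction. The call covered 37 of the 40 members that could be tested (92.5%), against 92.7% of the 3726 tested genes of the table. By direction, the same rule called 55.2% of the tested genes higher and 37.5% lower. The table holds genes that the authors selected on these same libraries, so the share of members called is close to that of its other genes and is no result about the families. The libraries of the groups did not overlap in 32 of 40 members, against 86.8% of all tested genes. The median log2 fold change was 1.23 over the members and 1.16 over all tested genes of the table. All 37 called members had the same direction in each run, and 25 changed by at least 1 on the log2 scale in both. The calls rest on these same libraries, and groups that do not overlap must have the same direction in each run. Run A also held a single Setd8-LKO library, so this is no replication.

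**Figure D1:**
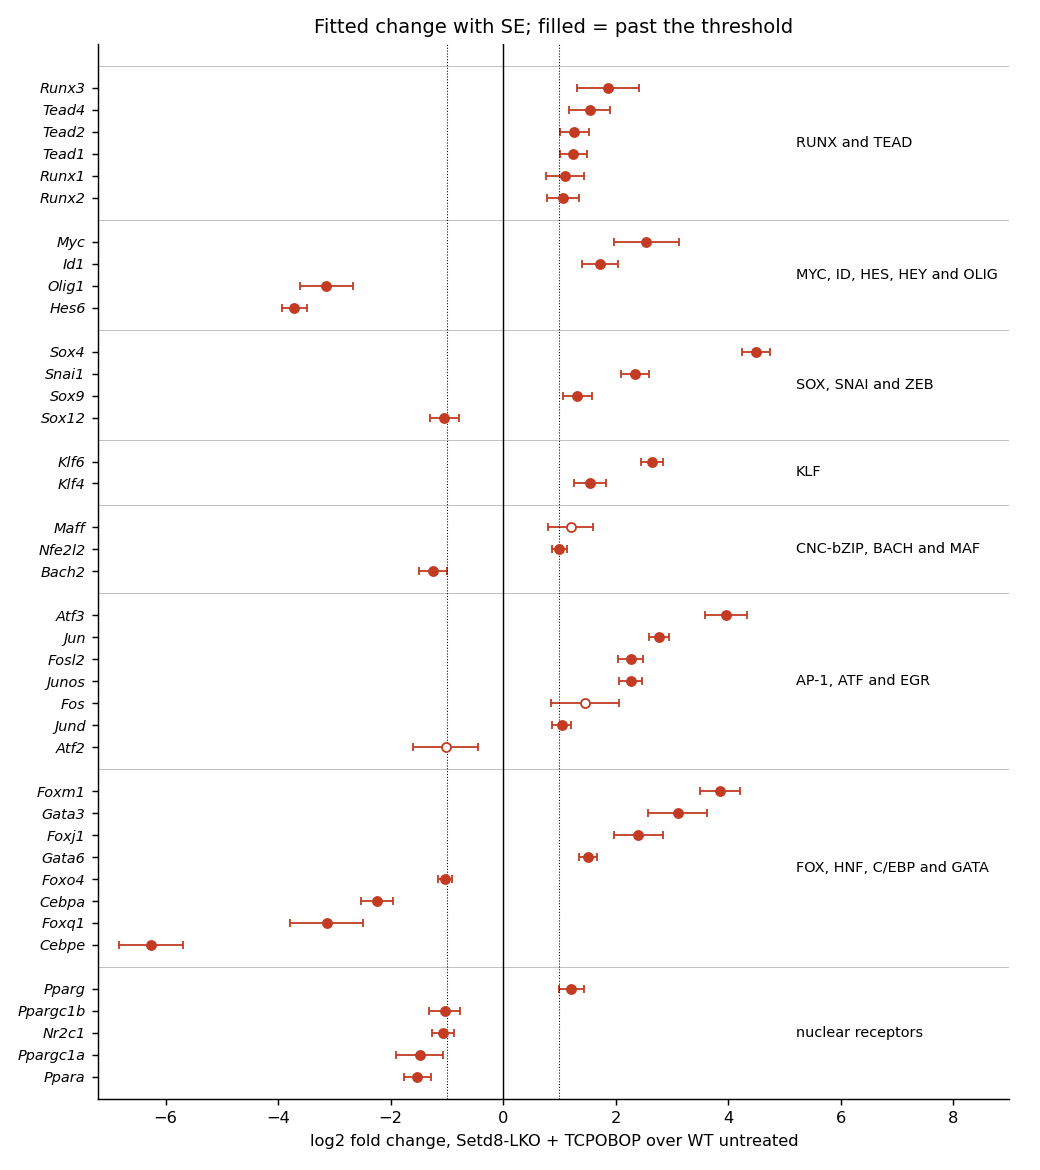
Fitted log2 fold changes of Setd8-LKO + TCPOBOP against WT untreated (x axis) for 39 of the 40 tested members, grouped by family, with SE bars, filled points for called members and dotted lines at -1 and 1. All 6 RUNX and TEAD members lie above 0, while the FOX, C/EBP and GATA family holds both the rise of Foxm1 and the falls of Cebpe, Foxq1 and Cebpa.

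The calls depended on how the libraries were scaled. When the authors' factors were replaced by DESeq2 size factors from the listed genes, the median log2 fold change of the table moved by -0.82, and 10 of 38 members were called higher and 13 lower, against 23.4% and 41.5% of all genes tested in that way. Sox4, Atf3, Foxm1, Jun, Klf6, Fosl2 and Myc were among the 10. Pparg, Sox9, Klf4, Gata6, Nfe2l2, Runx1, Tead4, Tead2, Runx2, Id1, Tead1 and Jund lost the call with their direction unchanged, and Gata3 and Runx3 fell below the count filter. With TMM factors the split was 24 higher and 13 lower (55.4% and 37.3% of all genes tested), and the median moved by -0.01. Size factors and TMM factors both assume that most genes do not change, while 92.7% of the tested genes of this selected table were called. These alternatives therefore cannot decide which scaling is right.

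The promoters of 6 of the members that changed most are shown because peaks of acetylated histone H3 lysine 27 (H3K27ac), a mark of active promoters and enhancers, and of open chromatin (ATAC) fell on most of them. They are RefSeq windows on GRCm38.p6, from 250 bases before to 50 after the transcript start, written 5′ to 3′ on the strand of the gene. Capitals mark matches to TGACNTCA (CRE-like letters), TTACNTCA (a close variant of them) and CCAAT (the NF-Y box). Both strands were read, so CCAAT also appears as ATTGG. The CRE, a site for CREB, ATF and JUN dimers, has G at N, while N here allows any base. The printed matches to TGACNTCA have A at N in Jun and Klf6 and C, on the other strand, in Sox4, so none is the CRE itself. The letters were chosen after the sequences were seen.
Jun, chr4:95052173-95052472, minus strand: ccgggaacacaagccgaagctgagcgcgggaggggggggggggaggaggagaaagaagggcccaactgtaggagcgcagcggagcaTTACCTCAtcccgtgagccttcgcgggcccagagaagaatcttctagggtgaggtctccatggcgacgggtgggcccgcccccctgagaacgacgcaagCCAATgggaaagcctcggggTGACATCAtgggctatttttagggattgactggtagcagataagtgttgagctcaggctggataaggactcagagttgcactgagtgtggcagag
Atf3, chr1:191183284-191183583, minus strand: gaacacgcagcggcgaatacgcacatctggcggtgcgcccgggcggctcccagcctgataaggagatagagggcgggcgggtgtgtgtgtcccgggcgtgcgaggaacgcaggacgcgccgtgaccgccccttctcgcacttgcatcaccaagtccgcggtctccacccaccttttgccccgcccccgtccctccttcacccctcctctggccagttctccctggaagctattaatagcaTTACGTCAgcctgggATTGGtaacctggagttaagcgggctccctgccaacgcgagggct
Klf6, chr13:5861239-5861538, plus strand: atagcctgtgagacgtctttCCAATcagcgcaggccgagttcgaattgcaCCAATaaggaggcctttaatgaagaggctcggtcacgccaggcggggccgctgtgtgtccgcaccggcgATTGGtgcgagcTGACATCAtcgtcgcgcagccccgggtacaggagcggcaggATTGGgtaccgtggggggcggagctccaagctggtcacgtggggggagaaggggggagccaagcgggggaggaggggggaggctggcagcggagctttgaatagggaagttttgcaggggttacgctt
Sox4, chr13:28953650-28953949, minus strand: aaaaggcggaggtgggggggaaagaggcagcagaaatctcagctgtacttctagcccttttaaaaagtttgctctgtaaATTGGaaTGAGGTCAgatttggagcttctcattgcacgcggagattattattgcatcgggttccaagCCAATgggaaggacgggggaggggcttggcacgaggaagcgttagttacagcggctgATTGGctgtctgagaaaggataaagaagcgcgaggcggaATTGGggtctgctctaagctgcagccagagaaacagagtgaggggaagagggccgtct
Hes6, chr1:91413173-91413472, minus strand: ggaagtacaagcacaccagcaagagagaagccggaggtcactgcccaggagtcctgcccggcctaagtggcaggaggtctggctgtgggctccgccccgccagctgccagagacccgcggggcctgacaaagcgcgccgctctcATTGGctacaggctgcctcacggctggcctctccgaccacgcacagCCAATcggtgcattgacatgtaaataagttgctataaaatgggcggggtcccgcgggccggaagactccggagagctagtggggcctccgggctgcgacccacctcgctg
Cebpa, chr7:35119043-35119342, plus strand: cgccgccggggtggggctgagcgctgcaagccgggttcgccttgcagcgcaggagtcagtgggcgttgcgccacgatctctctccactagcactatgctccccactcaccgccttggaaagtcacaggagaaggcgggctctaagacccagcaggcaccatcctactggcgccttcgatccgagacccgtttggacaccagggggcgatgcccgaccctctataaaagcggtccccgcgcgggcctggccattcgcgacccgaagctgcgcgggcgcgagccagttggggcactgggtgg
The Jun window held TTACCTCA from base 87 and TGACATCA from base 206, counted from 1 at the 5′ end. The Atf3 window held TTACGTCA from base 241, the Klf6 window TGACATCA from base 132, and the Sox4 window a match of the other strand, TGAGGTCA, from base 87. The Hes6 window shown held 2 CCAAT boxes and no match to the other letters, and the Cebpa window held no match at all. A Fosl2 window (chr5:32136222-32136521) and a second Hes6 window (chr1:91413989-91414288) were also read but are not printed. Neither held a match to the marked letters. The printed windows therefore do not show how matches divide between members that rose and members that fell. Of the 45 members, 29 had RefSeq windows in the table used. TGACNTCA stood in a window of 9 of these 29 members (Jun, Junos, Klf6, Maff, Ppargc1a, Runx1, Runx2, Runx3 and Sox4) and in 8.83% of the 32851 windows of all genes. TTACNTCA stood in windows of 2 members and 3.30% of all windows, and CCAAT in windows of 15 members and 37.4% of all windows. Members can have several windows, so the shares are not of the same kind. The core AP-1 letters TGANTCA were found in 1 member, Junos, and in 7.81% of all windows. CACGTG, the E-box that MYC dimers bind, stood in windows of 5 members and 7.15% of all windows.

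Among the AP-1, ATF and EGR factors, 5 of 7 tested members rose in Setd8-LKO and none fell. Atf3, a stress-induced repressor, had 23, 30, 19, 32 and 14 normalized counts in WT untreated replicates 1 to 5 and 239, 207, 604 and 433 in Setd8-LKO replicates 1 to 4. The lowest Setd8-LKO library stood above the highest WT library by a wide margin, and the mean was 15.7-fold higher (23.6 ± 7.50 against 371 ± 185, mean ± SD, n = 5 and 4, log2 fold change 3.97, SE 0.37, adjusted p = 2.19e-05). Jun, the central AP-1 subunit, had 238, 230, 344, 246 and 197 normalized counts in WT untreated and 1686, 1733, 1844 and 1608 in Setd8-LKO. The Setd8-LKO libraries lay close together and far above WT, with a mean 6.84-fold higher (log2 fold change 2.77, SE 0.17, adjusted p = 2.22e-06, 2.61 within run A and 2.90 within run B). Junos starts within Jun and runs the other way, and as the strand of the counting is not given in the sources used here, its reads and those of Jun may not be separable. Its 2.27 ± 0.21 (log2 fold change ± SE) is therefore uncertain. Fosl2, a Fos family partner of Jun, had 155, 115, 157, 222 and 122 in WT untreated and 732, 755, 914 and 575 in Setd8-LKO, again without overlap (log2 fold change 2.27, SE 0.22, adjusted p = 2.57e-05). Jund, the partner usually present in resting cells, rose less, from 1464, 1525, 1366, 1770 and 1336 to 2707, 2498, 3822 and 3256 normalized counts (log2 fold change 1.04, SE 0.16, adjusted p = 0.000645), and the log2 fold change fell to 0.92, below the threshold of 1, when Setd8-LKO replicate 3 was left out.

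Fos and Atf2 were listed but not called. Fos had 21, 20, 66, 13 and 3 normalized counts in WT untreated and 105, 83, 41 and 46 in Setd8-LKO (log2 fold change 1.46, SE 0.60, adjusted p = 0.177). WT untreated replicate 3, at 66, lay within the range of the Setd8-LKO libraries, and without it Fos had a log2 fold change of 2.24 and an adjusted p of 0.00859. Atf2, a bZIP partner of Jun, had 622, 564, 3010, 2723 and 1920 in WT untreated and 543, 533, 552 and 1848 in Setd8-LKO (log2 fold change -1.03, SE 0.58, adjusted p = 0.539). Its libraries separated by run: all 5 of run B lay between 533 and 622, and all 4 of run A between 1848 and 3010. Egr2 had 0, 0, 1, 2 and 6 in WT untreated and 22, 25, 9 and 13 in Setd8-LKO, without overlap, with raw counts of 8 against 88 summed over the groups. It failed the count filter, and without the filter it was called (log2 fold change 3.23, SE 0.67, adjusted p = 0.00405 in edgeR).

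**Figure D2:**
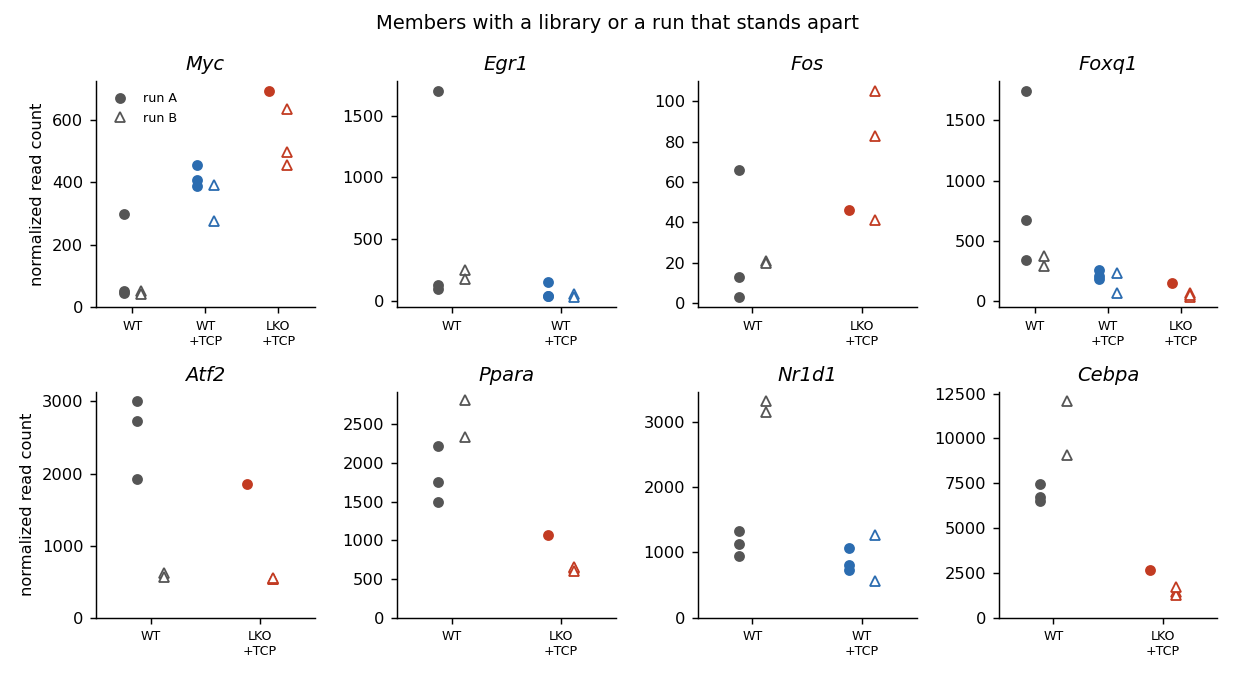
Normalized counts (linear y axis) of 8 members in each library by group, with filled circles for run A and open triangles for run B. Atf2 separates by run within the groups, Myc, Egr1 and Foxq1 have their highest WT untreated value in replicate 3, and Cebpa separates WT untreated from Setd8-LKO in both runs.

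The KLF zinc finger factors rose where they could be tested. Klf6, an early response factor of injured liver, had 167, 103, 175, 125 and 137 normalized counts in WT untreated and 1076, 856, 731 and 862 in Setd8-LKO. The lowest Setd8-LKO library, at 731, lay above the highest WT library, at 175, a 6.23-fold higher mean (log2 fold change 2.64, SE 0.19, adjusted p = 5.17e-06, 2.56 within run A and 2.71 within run B). Klf4 had 23, 15, 22, 24 and 40 in WT untreated and 89, 82, 60 and 58 in Setd8-LKO, also without overlap (log2 fold change 1.55, SE 0.29, adjusted p = 0.00198). Klf5, at 3, 9, 9, 8 and 2 and 27, 23, 4 and 12, overlapped between the groups and failed the count filter. Without the filter it was not called (log2 fold change 1.38, SE 0.58, adjusted p = 0.175 in edgeR), whereas without Setd8-LKO replicate 3 it passed the filter and was called (1.72, adjusted p = 0.0186).

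Of the CNC-bZIP and BACH factors, Nfe2l2 rose and Bach2 fell. Nfe2l2 (NRF2), the main activator of antioxidant genes, had 1108, 973, 834, 1016 and 1002 normalized counts in WT untreated and 2178, 2136, 1743 and 1843 in Setd8-LKO. All Setd8-LKO libraries were higher (log2 fold change 1.00, SE 0.14, adjusted p = 0.000247), but the change sat at the threshold of 1. It lay under 1 in 4 of the 9 fits that left out 1 library (that of WT untreated replicate 2 or 3 or of Setd8-LKO replicate 1 or 2, with log2 fold changes down to 0.95 and adjusted p up to 0.00142), with run as a term of the model (0.96) and with TMM factors (0.98). Bach2, a repressor that competes for related sites, had 420, 212, 463, 283 and 313 in WT untreated and 170, 156, 129 and 113 in Setd8-LKO, without overlap (log2 fold change -1.25, SE 0.25, adjusted p = 0.00300). Maff, a small MAF partner of NRF2, had 164, 103, 101, 28 and 58 in WT untreated and 185, 226, 176 and 249 in Setd8-LKO. The groups did not overlap, but Maff was not called (log2 fold change 1.20, SE 0.40, adjusted p = 0.0636), while DESeq2's Wald test and limma voom called it, as did edgeR without WT untreated replicate 1 (adjusted p = 0.0139).

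Sox4 was the member with the largest fitted rise. It had 52, 48, 43, 37 and 50 normalized counts in WT untreated and 1303, 1262, 600 and 968 in Setd8-LKO. The WT libraries spread over 37 to 52 and the Setd8-LKO libraries over 600 to 1303, so the mean rose 22.5-fold (46.0 ± 6.04 against 1033 ± 325, SD, n = 5 and 4, log2 fold change 4.49, SE 0.25, adjusted p = 1.31e-06, 4.47 within run A and 4.39 within run B). Sox9, the marker of cholangiocytes and liver progenitors, had 93, 133, 53, 134 and 109 in WT untreated and 277, 308, 211 and 245 in Setd8-LKO, a smaller rise without overlap (log2 fold change 1.32, SE 0.26, adjusted p = 0.00289). The cholangiocyte markers Krt7 (2.30), Spp1 (3.36), Epcam (3.21) and Cldn4 (4.38) also rose (log2 fold changes in parentheses), and Krt19 (1.49) was not called. Their part in the rise of Sox9 was not tested. Snai1, a repressor of epithelial genes, rose from 13, 13, 19, 20 and 14 to 94, 84, 85 and 56 normalized counts (log2 fold change 2.35, SE 0.25, adjusted p = 4.40e-05). Sox12, of the same subgroup as Sox4, moved the other way, from 80, 99, 100, 72 and 81 to 47, 56, 26 and 38 (log2 fold change -1.05, SE 0.25, adjusted p = 0.0112), and lost the call in 4 of the 9 fits that left out 1 library (that of WT untreated replicate 2 or 3 or of Setd8-LKO replicate 3 or 4, with log2 fold changes down to -0.87 and adjusted p up to 0.0398).

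**Figure D3:**
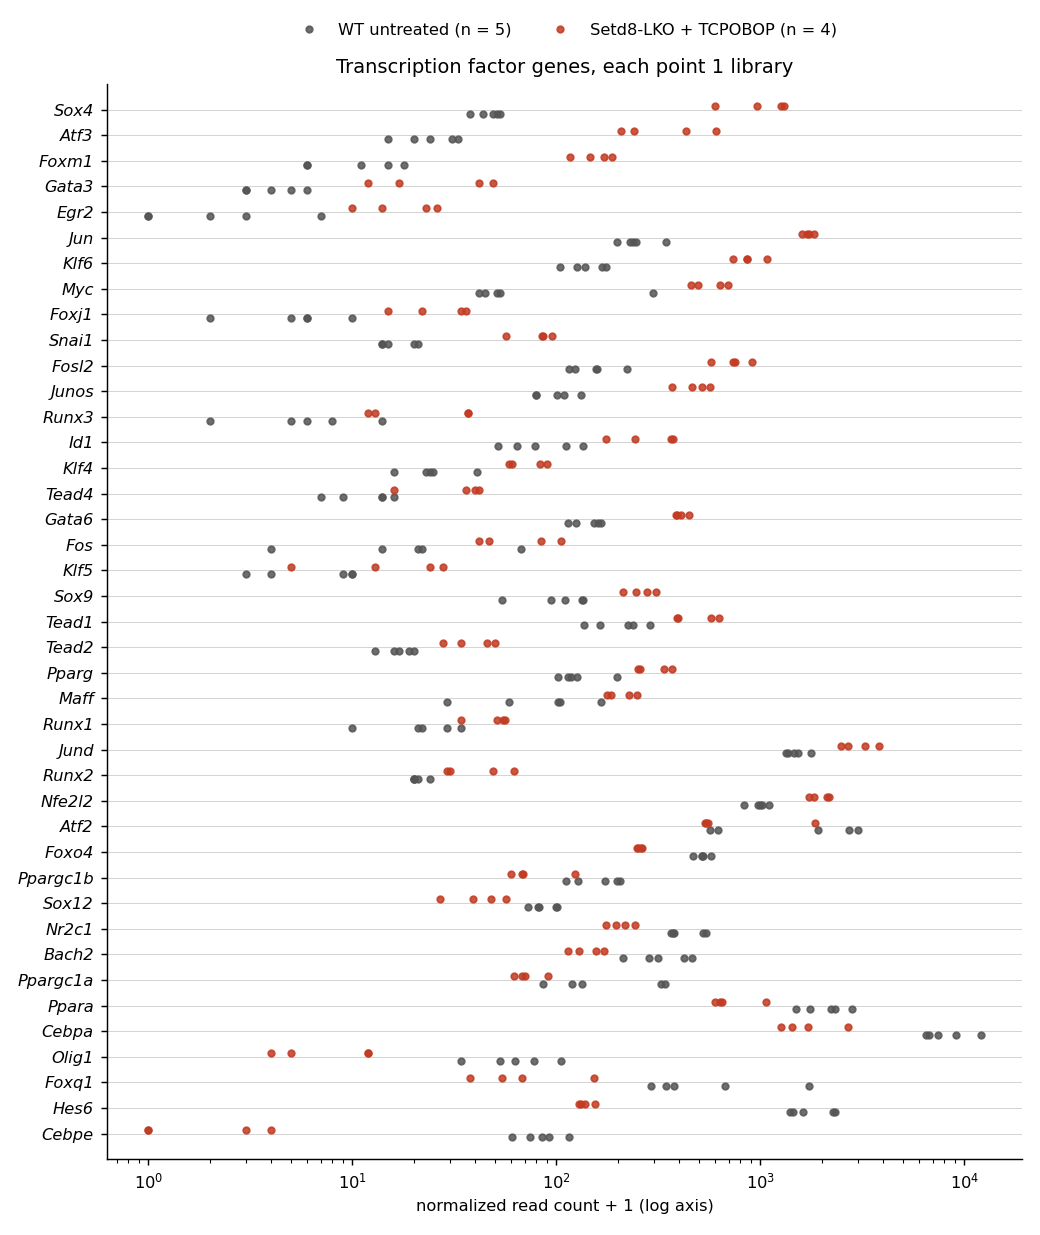
Normalized counts plus 1 on a log x axis for 41 of the 42 members of the first table, each point 1 library of WT untreated (grey) or Setd8-LKO + TCPOBOP (red), ordered by change. For Sox4 the Setd8-LKO libraries (600 to 1303) lie above all WT libraries (37 to 52), and for Hes6 they (129 to 154) lie below all WT libraries (1401 to 2329).

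In the MYC, ID, HES and OLIG group of bHLH factors, Myc and Id1 rose and Hes6 and Olig1 fell. Myc had 52, 41, 297, 50 and 44 normalized counts in WT untreated and 497, 455, 635 and 691 in Setd8-LKO. WT untreated replicate 3, at 297, stood far above the other 4 WT libraries but below every Setd8-LKO library (5.88-fold higher mean, log2 fold change 2.55, SE 0.58, adjusted p = 0.00742). Id1, which binds bHLH factors and blocks them, rose from 51, 63, 134, 78 and 111 to 243, 373, 174 and 363 (log2 fold change 1.72, SE 0.32, adjusted p = 0.00212). Hes6, an inhibitor of Hes1, had 2264, 2329, 1627, 1401 and 1455 in WT untreated and 138, 129, 132 and 154 in Setd8-LKO. The Setd8-LKO libraries lay within 129 to 154, far below every WT library, and the mean was 13.1-fold lower (1815 ± 448 against 138 ± 11.1, SD, n = 5 and 4, log2 fold change -3.71, SE 0.21, adjusted p = 1.58e-06). Olig1, better known from oligodendrocytes, fell from 77, 104, 62, 52 and 33 to 4, 3, 11 and 11 (log2 fold change -3.15, SE 0.47, adjusted p = 0.000443).

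All 6 RUNX and TEAD members rose with the authors' factors, and none kept the call with size factors over the listed genes, where Runx3 failed the count filter and the other 5 had log2 fold changes of 0.20 to 0.67. That scaling rests on genes the authors selected, so it cannot decide whether these rises hold. The RUNX factors are best known from blood, bone and activated stromal cells, and the TEAD factors are the DNA-binding partners of YAP. Tead1 had 286, 163, 236, 224 and 136 normalized counts in WT untreated and 630, 575, 395 and 390 in Setd8-LKO, and Tead2 had 12, 19, 16, 15 and 18 and 45, 49, 33 and 27. Neither overlapped (log2 fold change 1.25, SE 0.25, adjusted p = 0.00280, and log2 fold change 1.26, SE 0.26, adjusted p = 0.00374). Tead4, at 6, 13, 15, 13 and 8 and 39, 41, 15 and 35, was called but its groups overlapped (log2 fold change 1.54, SE 0.37, adjusted p = 0.00957). Runx2 had 20, 19, 19, 23 and 19 in WT untreated and 61, 48, 29 and 28 in Setd8-LKO (log2 fold change 1.06, SE 0.28, adjusted p = 0.0196). Runx1 (20, 9, 33, 28 and 21 against 54, 55, 33 and 50, log2 fold change 1.10, SE 0.33, adjusted p = 0.0404) and Runx3 (5, 1, 7, 13 and 4 against 36, 36, 11 and 12, log2 fold change 1.87, SE 0.55, adjusted p = 0.0332) met or overlapped between groups. The call of Runx1 was lost in 7 of the 9 fits that left out 1 library (that of WT untreated replicate 1, 2, 4 or 5 or of Setd8-LKO replicate 1, 2 or 4, with log2 fold changes down to 0.91 and adjusted p up to 0.114). That of Runx3 was lost in 6 of the 9 fits that left out 1 library (that of WT untreated replicate 1, 2, 3 or 5 or of Setd8-LKO replicate 1 or 2, with log2 fold changes down to 1.60 and adjusted p up to 0.118), and that of Runx2 in 2 of the 9 fits that left out 1 library (that of Setd8-LKO replicate 1 or 2, with log2 fold changes down to 0.81 and adjusted p up to 0.0769). With run as a term, Runx2 (0.95, adjusted p = 0.0811) and Runx3 (1.87, adjusted p = 0.104) lost the call. Setd8-LKO replicates 1 and 2 had the highest counts of Runx2 and of Tead1, Tead2 and Gata3. The listed stellate cell and fibroblast markers, 4 of 4 higher, moved in the same direction as this group, and their part was not tested. Of the listed targets of TEAD and YAP, Ankrd1 (4.75), Birc5 (3.13) and Ajuba (1.63) rose on the log2 scale and Ccn2 (1.17) was not called.

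The FOX, C/EBP and GATA factors divided evenly, with 4 higher and 4 lower. Foxm1, the forkhead factor of the G2 and M phases, had 5, 5, 17, 14 and 10 normalized counts in WT untreated and 146, 186, 170 and 116 in Setd8-LKO. The groups were far apart, with a 15.1-fold higher mean (10.2 ± 5.36 against 154 ± 30.5, SD, n = 5 and 4, log2 fold change 3.86, SE 0.35, adjusted p = 1.76e-05). Gata6, a factor of liver development and of stromal and biliary cells, rose from 124, 113, 165, 160 and 152 to 449, 407, 384 and 390 (log2 fold change 1.51, SE 0.16, adjusted p = 4.80e-05). Gata3 and Foxj1, known from lymphocytes and from ciliated cells, stayed at low counts, with Gata3 at 2, 5, 2, 4 and 3 and 41, 48, 16 and 11 and Foxj1 at 5, 9, 5, 4 and 1 and 35, 33, 14 and 21. Both rose without overlap (log2 fold change 3.10, SE 0.52, adjusted p = 0.00101, and log2 fold change 2.40, SE 0.44, adjusted p = 0.00163).

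Cebpa, a master factor of hepatocyte differentiation, fell. It had 9070, 12061, 6507, 7458 and 6747 normalized counts in WT untreated and 1438, 1257, 1711 and 2680 in Setd8-LKO. The lowest WT library, at 6507, lay above the highest Setd8-LKO library, at 2680 (8369 ± 2294 against 1772 ± 634, SD, n = 5 and 4, log2 fold change -2.24, SE 0.28, adjusted p = 0.000136, -1.37 within run A and -2.85 within run B). Setd8-LKO replicate 4, the single Setd8-LKO library of run A, was the highest of its group. Cebpe, the C/EBP factor of granulocyte maturation, had 114, 91, 73, 60 and 84 in WT untreated and 2, 0, 0 and 3 in Setd8-LKO, with raw counts of 385 against 5 summed over the groups. The fitted value (log2 fold change -6.26, SE 0.57, adjusted p = 1.72e-05) rests on those few reads and depends on the prior count. Foxq1 had 289, 375, 1739, 343 and 669 in WT untreated and 37, 67, 53 and 153 in Setd8-LKO, without overlap but with WT untreated replicate 3 far above the rest (log2 fold change -3.14, SE 0.64, adjusted p = 0.00362). The 9 fits that left out 1 library gave Foxq1 log2 fold changes of -3.70 to -2.43, and all kept the call. Foxo4, an insulin-responsive forkhead factor, had 573, 526, 516, 469 and 519 and 258, 247, 263 and 252, narrow groups that did not overlap (log2 fold change -1.03, SE 0.13, adjusted p = 0.000126). The call of Foxo4 sat at the threshold and was lost without WT untreated replicate 1 (-0.99). Beside Cebpa, the hepatocyte markers Alb and Ttr had log2 fold changes of -1.34 and -1.60, and their part in the fall of Cebpa was not tested.

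Among nuclear receptors and their coactivators, Ppara, Nr2c1, Ppargc1a and Ppargc1b fell and Pparg rose. Ppara, the receptor that drives fatty acid oxidation in fasting liver, had 2807, 2336, 1757, 2222 and 1493 normalized counts in WT untreated and 636, 651, 601 and 1063 in Setd8-LKO. The groups did not overlap (2123 ± 513 against 738 ± 218, SD, n = 5 and 4, log2 fold change -1.53, SE 0.24, adjusted p = 0.000621), and the change was -0.78 within run A and -2.03 within run B. Setd8-LKO replicate 4, at 1063, lay apart from the other 3 Setd8-LKO libraries, at 601 to 651. Pparg, the adipogenic receptor that marks steatotic liver, went the other way, from 101, 198, 113, 117 and 125 to 256, 252, 336 and 368 normalized counts (log2 fold change 1.21, SE 0.23, adjusted p = 0.00205). Nr2c1 (TR2), an orphan receptor, fell from 363, 371, 523, 377 and 540 to 216, 174, 196 and 242 (log2 fold change -1.07, SE 0.19, adjusted p = 0.00131) and was below the threshold of 1 in 3 of the 9 fits that left out 1 library (that of WT untreated replicate 3 or 5 or of Setd8-LKO replicate 2, with log2 fold changes down to -0.98 and adjusted p up to 0.00655). Ppargc1a, the coactivator of gluconeogenesis and mitochondrial biogenesis, had 119, 85, 341, 133 and 327 in WT untreated and 90, 67, 69 and 61 in Setd8-LKO. WT untreated replicates 3 and 5 were high, replicate 2 lay within the Setd8-LKO range, and the change (log2 fold change -1.48, SE 0.42, adjusted p = 0.0277) was -2.12 within run A and -0.43 within run B. Ppargc1b had 172, 111, 198, 127 and 204 and 59, 67, 68 and 122, also with overlap (log2 fold change -1.04, SE 0.28, adjusted p = 0.0207). The call of Ppargc1a was lost in 5 of the 9 fits that left out 1 library (that of WT untreated replicate 3 or 5 or of Setd8-LKO replicate 2, 3 or 4, with log2 fold changes down to -1.21 and adjusted p up to 0.0840). That of Ppargc1b was lost in 5 of the 9 fits that left out 1 library (that of WT untreated replicate 3 or 5 or of Setd8-LKO replicate 1, 2 or 3, with log2 fold changes down to -0.92 and adjusted p up to 0.0741). With run as a term, Nr2c1 (-0.94, adjusted p = 0.00261), Ppargc1a (-1.03, adjusted p = 0.206) and Ppargc1b (-0.89, adjusted p = 0.0274) were not called.

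Genes that textbooks place under these factors did not all follow the RNA of the factor. Of 9 listed PPARalpha targets, 8 rose, with a median log2 fold change of 1.86 (Fgf21 4.39, Cyp4a14 3.20, Pdk4 2.68), and Fabp1 fell (-1.04), although the RNA of Ppara fell. Of 9 listed NRF2 targets, 8 rose (median 1.87, with Gsta1 at 4.14, Srxn1 at 2.71 and Nqo1 at 2.27) and Gclc, the catalytic subunit of glutamate-cysteine ligase, fell (-1.35). Of 10 listed entries for ATF4 and CHOP targets, 9 rose (Trib3 4.24, Psat1 3.07) and Chac1 fell (-1.98); Ddit3 stood in the table under 2 identifiers. All 13 listed targets of CAR and PXR rose (median 3.53). In WT + TCPOBOP, 13 of 13 tested CAR and PXR targets rose as well (median 2.86), while of 3 listed PPARalpha targets 2 fell and none rose. Those 2, the acyl-CoA thioesterases Acot1 and Acot2, had log2 fold changes of -2.57 and -1.93 there and 1.83 and 3.19 in Setd8-LKO. That difference was not tested. Of 6 bile acid and sterol genes, 5 fell (Cyp8b1 -3.61, Cyp7b1 -4.94) and Slc51b rose (2.80). Among factors outside the families, Mybl1 (6.44), E2f2 (2.85), E2f7 (1.91) and Rbl1 (1.89) rose and Tfdp2 fell (-1.28), and Srebf1 (-3.19), Onecut1 (-2.61) and Mlxipl (-2.21), regulators of lipogenesis, hepatocyte identity and glycolysis, fell. Ahr and Ets2 rose (both 1.87). The clock list held 1 listed gene, Hlf, which fell (-1.80). These lists were drawn up with earlier results of these data known, and the tables hold only genes the authors selected on these libraries.

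In the second comparison, WT + TCPOBOP against WT untreated, 7 of the 13 listed members were called, 3 higher and 4 lower (53.8%). The same rule called 78.8% of the 679 tested genes of this table, 58.2% higher and 20.6% lower. The groups did not overlap in 8 of 13 members, against 82.0% of all tested genes. The untreated libraries are those of the first comparison, so the 2 sets of values are not independent.

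Fosl2 and Jun rose in WT + TCPOBOP. Fosl2 had 1599, 1466, 1390, 1233 and 1396 normalized counts in WT + TCPOBOP replicates 1 to 5, against 115 to 222 in WT untreated (log2 fold change 3.20, SE 0.21, adjusted p = 6.64e-06). Jun had 523, 820, 606, 790 and 442, against 197 to 344 in WT untreated (log2 fold change 1.34, SE 0.23, adjusted p = 0.00506). Both groups stood clear of WT untreated. In Setd8-LKO the values side by side were 2.27 for Fosl2 and 2.77 for Jun. Foxm1, at 50, 23, 23, 50 and 32, was also called (log2 fold change 1.74, SE 0.40, adjusted p = 0.0378) without overlap, but lost the call in 7 of the 10 fits that left out 1 library (that of WT untreated replicate 1, 2, 4 or 5 or of WT + TCPOBOP replicate 1, 4 or 5, with log2 fold changes down to 1.57 and adjusted p up to 0.118). Myc, at 406, 386, 454, 277 and 391, was not called (log2 fold change 1.98, SE 0.55, adjusted p = 0.129), and WT untreated replicate 3 (297) stood above the lowest WT + TCPOBOP library (277). Without that library the log2 fold change of Myc was 3.02 and the adjusted p 5.51e-05.

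Olig1, Mycl, Hes6 and Ppargc1b fell in WT + TCPOBOP. Olig1 had 2, 1, 8, 4 and 9 normalized counts, against 33 to 104 in WT untreated (log2 fold change -3.72, SE 0.48, adjusted p = 0.000872). Hes6 had 1017, 598, 1087, 1005 and 701, against 1401 to 2329 in WT untreated (log2 fold change -1.04, SE 0.23, adjusted p = 0.0270). Mycl, a MYC relative that was listed in this table alone, fell from 74, 94, 106, 126 and 103 to 41, 61, 58, 31 and 36 (log2 fold change -1.15, SE 0.25, adjusted p = 0.0257), and Ppargc1b had 87, 58, 86, 81 and 51 (log2 fold change -1.16, SE 0.25, adjusted p = 0.0249). The call of Mycl was lost in 7 of the 10 fits that left out 1 library (that of WT untreated replicate 2, 3, 4 or 5 or of WT + TCPOBOP replicate 1, 4 or 5, with log2 fold changes down to -1.04 and adjusted p up to 0.0879). That of Ppargc1b was lost in 6 of the 10 fits that left out 1 library (that of WT untreated replicate 1, 3 or 5 or of WT + TCPOBOP replicate 2, 4 or 5, with log2 fold changes down to -1.06 and adjusted p up to 0.0773), and that of Hes6 in 5 of the 10 fits that left out 1 library (that of WT untreated replicate 1 or 2 or of WT + TCPOBOP replicate 1, 2 or 5, with log2 fold changes down to -0.93 and adjusted p up to 0.0907). Nr1d1, the circadian repressor REV-ERBalpha, had 3319, 3142, 951, 1327 and 1125 in WT untreated and 735, 1059, 809, 1270 and 560 in WT + TCPOBOP and was not called (log2 fold change -1.15, SE 0.39, adjusted p = 0.343). WT untreated replicates 1 and 2, both of run B, stood far above the other 3, and the change was -0.39 within run A and -1.82 within run B. Egr1, a growth factor response gene, had 247, 173, 1698, 95 and 127 and 151, 36, 42, 52 and 32 and was not called (log2 fold change -2.90, SE 0.86, adjusted p = 0.171), with WT untreated replicate 3 at 1698. Foxq1, at 213, 183, 258, 68 and 231 (log2 fold change -1.84, SE 0.53, adjusted p = 0.152), Ppargc1a, at 90, 50, 107, 74 and 57 (log2 fold change -1.41, SE 0.42, adjusted p = 0.171), and Bach2, at 115, 182, 162, 227 and 144 (log2 fold change -1.03, SE 0.26, adjusted p = 0.0760), were not called either. In the 10 fits that left out 1 library, Egr1 ranged from -3.53 to -1.36 and Foxq1 from -2.03 to -1.13, without a call. Scaling mattered more here: with size factors over the listed genes the median moved by -1.17 and 1 member was called higher and 8 lower, against 11.1% and 30.7% of all genes tested. With TMM factors it moved by -1.25, with 1 higher and 9 lower, against 10.5% and 30.8%. In both, Fosl2 was the member called higher, and Jun (0.16 and 0.08) and Foxm1 (0.56 and 0.47) kept their direction without the call. Both scalings again rest on genes the authors selected and cannot decide which scaling is right.

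The 10 members that both tables list allowed Setd8-LKO + TCPOBOP to be set beside WT + TCPOBOP, where the drug is shared and the genotype differs. The authors' scaling factors of the shared untreated libraries differed by at most 0.000794% between the tables, so the normalized counts are on 1 scale, which rests on the authors' factors. This comparison was added after that was seen. An exact two-sided permutation test over libraries, with Benjamini-Hochberg adjustment over the 10 genes, can reach p = 0.0159 and an adjusted p of 0.0317 here. Foxm1 (mean 154 ± 30.5 against 35.6 ± 13.6 normalized counts, SD, n = 4 and 5) and Jun (1718 ± 98.7 against 636 ± 165) were higher in Setd8-LKO + TCPOBOP than in WT + TCPOBOP, as was Myc (569.5 ± 112 against 383 ± 65.0), and Hes6 (138 ± 11.1 against 882 ± 217) and Fosl2 (744 ± 139 against 1417 ± 133) were lower. None of these 5 overlapped, and each had an adjusted p of 0.0317 in the exact permutation test. That test ignored run, which was unbalanced, since run A held 1 Setd8-LKO library beside 3 of WT + TCPOBOP, while run B held 3 beside 2. The mean log2 difference within run A and run B was 1.94 and 2.04 for Foxm1, 1.33 and 1.57 for Jun, 0.74 and 0.67 for Myc, -2.50 and -2.65 for Hes6 and -1.37 and -0.72 for Fosl2. With libraries exchanged within runs alone, an alternative added after seeing the data, each of the 5 had an exact two-sided permutation p of 0.05, the smallest that the 40 arrangements allow, so none could pass the threshold. Fosl2 was thus higher than in WT untreated in both treated groups and highest in WT + TCPOBOP. Foxq1 was 1.37 lower on the log2 scale (mean difference -1.37, exact permutation p = 0.0317, adjusted p = 0.0529). Bach2 (adjusted p = 0.496), Olig1 (0.496), Ppargc1b (0.811) and Ppargc1a (0.889) showed no difference beyond the spread of the libraries in the same exact permutation test.

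**Figure D4:**
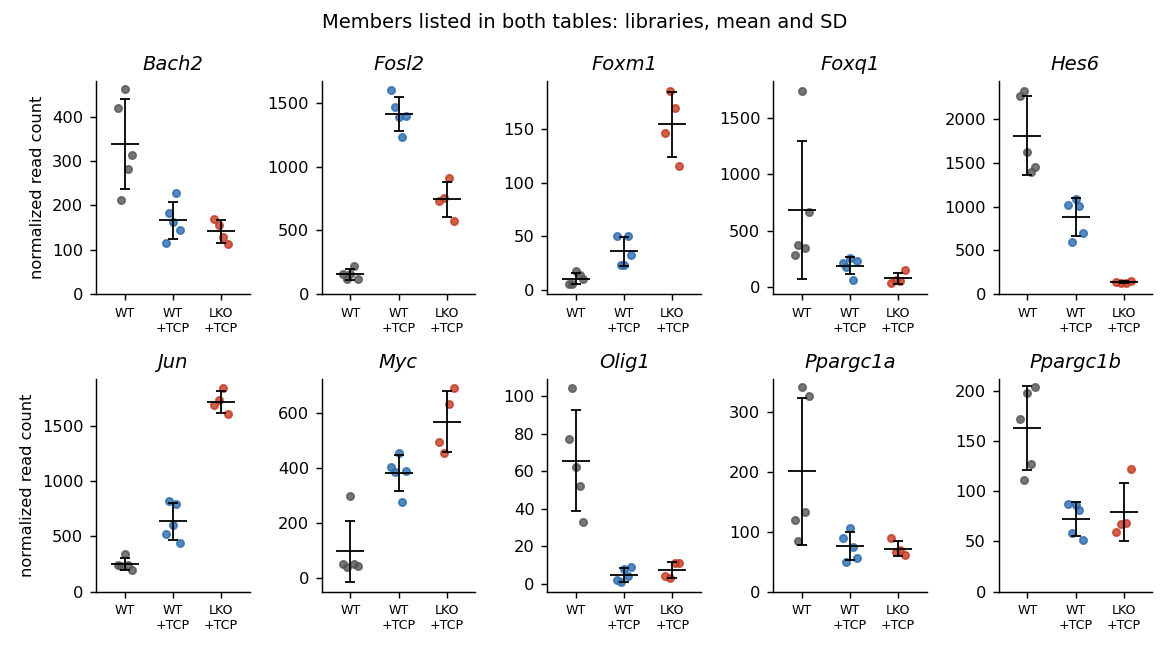
Normalized counts (linear y axis) of the 10 members listed in both tables, each point 1 library of WT untreated (WT), WT + TCPOBOP (WT +TCP) or Setd8-LKO + TCPOBOP (LKO +TCP), with group means and SD bars. Jun and Foxm1 climb from WT untreated through WT + TCPOBOP to Setd8-LKO + TCPOBOP, Fosl2 is highest in WT + TCPOBOP, and Hes6 falls in both steps.

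H3K27ac marked the promoters of nearly all members in both groups. The chromatin lists came from WT untreated and Setd8-LKO + TCPOBOP livers alone, so genotype and treatment changed together here too. WT untreated and Setd8-LKO + TCPOBOP had 3 and 3 samples for H3K27ac, 3 and 5 for ATAC, 4 and 2 for CTCF and 3 and 2 for Smc3. Promoters were taken as 1000 bp to each side of any GENCODE transcript start on mm10. A promoter H3K27ac peak stood in both peak lists at 43 of 45 members (95.6%, exact Clopper-Pearson 95% interval 84.9 to 99.5%), against 58.4% of the 4101 listed genes with a position. A gene with several starts, such as Atf2 with 17, counts a peak at any of them. Promoter shares, here and for ATAC below, were not adjusted for the number of starts or the type of gene. The exceptions, Cebpe and Foxq1, had none in either list, so no member had one in the WT list alone, against 2.51% of all listed genes. There is 1 list for each group, so the spread between mice is not known, nothing was tested, and the interval covers counting error alone. Single promoter peaks of the WT list had no counterpart at 4 members (Pparg, Bach2, Hes6 and Mycl), against 8.29% of all genes, and peaks of the Setd8-LKO list at 5 (Runx1, Foxj1, Egr2, Id1 and Sox12), against 11.2%.

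The summed length of H3K27ac peaks at promoters moved with the RNA, at the members as over all listed genes. Each peak that reached a promoter counted at its full length, with the parts beyond the 1000 bp. This sum was greater in the Setd8-LKO list at 23 of 24 members that rose, with Nfe2l2 the exception. It was also greater at 1 of 11 members that fell and had a peak, Sox12. Jun and Junos share most of their promoter peaks but count separately among the 24, here and in the other promoter counts. Over all listed genes the shares were 91.4% of those that rose and 30.5% of those that fell. The count among members that rose is thus close to that of other genes and is no trait of the members. H3K27ac peaks of the Setd8-LKO list were longer as a whole, with a median of 574 bp against 513 bp in the WT list. Of all listed genes with a promoter peak in both lists, 66.3% had the greater length in the Setd8-LKO list. Klf6 went from 1061 to 3055 bp at a like highest fold enrichment over background (from 31.5 to 30.6), and Runx1 went from 728 to 2011 bp, Jun from 2771 to 4079 bp and Runx2 from 1019 to 2155 bp. Cebpa went from 6602 to 4057 bp while its highest fold enrichment stayed level (from 53.1 to 53.5), Hes6 from 2489 to 1644 bp and Ppargc1a from 1831 to 1094 bp.

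Peak height moved less uniformly. The highest fold enrichment of a promoter H3K27ac peak was above the WT list at 17 of 24 members that rose (70.8%, against 74.6% of all genes that rose) and at 2 of 11 that fell (18.2%, against 33.3%). Sox4 showed the steepest gain, from 12.1 to 48.2, at a peak downstream of the RefSeq window printed above, no base of which was covered by a peak. Klf5 went from 7.55 to 26.6, Runx3 from 8.53 to 22.3, Gata6 from 15.8 to 37.5 and Runx2 from 14.3 to 27.7. Ppargc1a went from 15.3 to 6.0 and Foxo4 from 20.8 to 11.2. Of the printed windows, that of Atf3 was covered by H3K27ac over 31 bases in the WT list and 209 in the Setd8-LKO list, and that of Klf6 over 132 and 300. The Jun window, at 96 and 99 bases, and the Hes6 and Cebpa windows, at 299 or 300 in both lists, changed little.

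**Figure D5:**
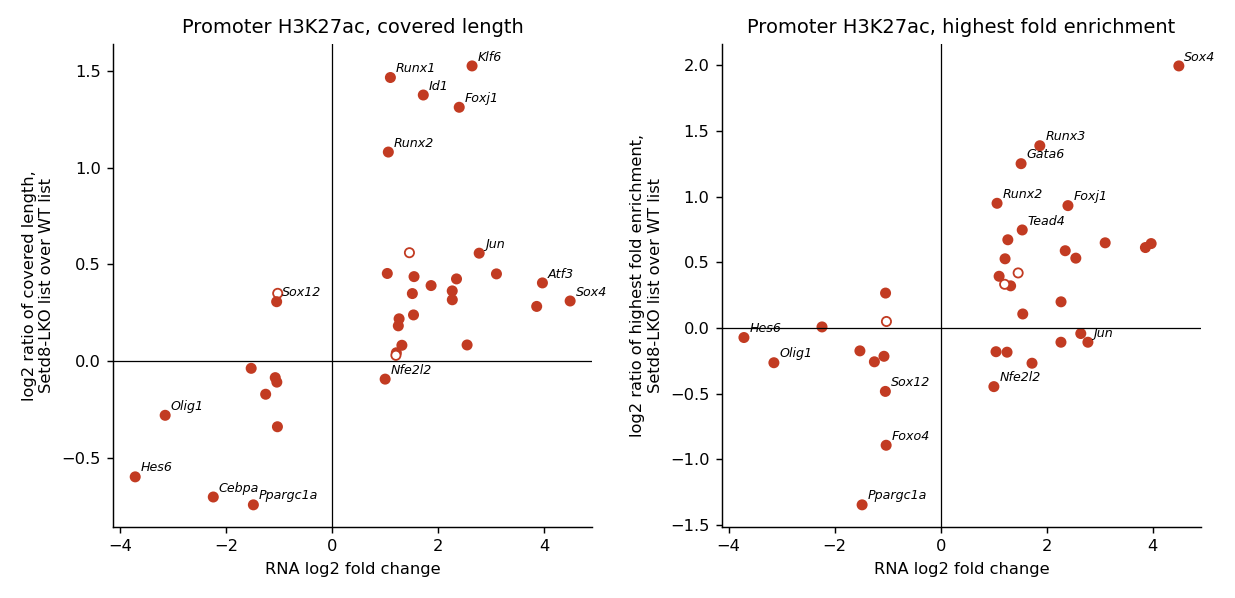
Log2 ratio of promoter H3K27ac between the Setd8-LKO and WT peak lists against the RNA log2 fold change of Setd8-LKO + TCPOBOP against WT untreated, for covered length (left) and highest fold enrichment (right), with open points for members not called. Covered length is the summed full length of the peaks that reached a promoter. Points of members that rose lie above 0 on the left except Nfe2l2, and Sox4 has the highest ratio on the right.

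Gene bodies were taken with the 1000 bp before the gene start, so some promoter peaks are counted again here. Of the 24 members that rose, 10 held an H3K27ac peak of the Setd8-LKO list without a counterpart and 1 held one of the WT list. Of the 13 that fell, 2 held one of the Setd8-LKO list and 7 one of the WT list. The shares over all listed genes were 25.9% and 4.53% of those that rose and 12.9% and 37.7% of those that fell. Pparg held 8 body peaks in the WT list and 13 in the Setd8-LKO list, with 6 new and 1 gone. In Bach2, 5 of 7 WT peaks had no counterpart. Foxq1 went against the pattern: a peak in its body went from 37.0 to 46.2 fold enrichment while its RNA fell, and its length went from 2854 to 2388 bp.

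ATAC peaks showed another picture. A promoter ATAC peak stood in the WT list at 33 of 45 members and in the Setd8-LKO list at 27, each of which also had one in WT (60.0% in both, against 35.6% of all listed genes). The 6 in the WT list alone (13.3%, interval 5.05 to 26.8%, against 9.17% of all listed genes) were Pparg, Sox9, Ppara, Maff, Sox12 and Jund, of which Pparg, Sox9 and Jund rose in RNA and Ppara and Sox12 fell. Single ATAC promoter peaks had no counterpart at 9 members for the WT list, against 12.6% of all listed genes, and at 4 for the Setd8-LKO list (Foxm1, Ppargc1a, Bach2 and Junos), against 3.68%. Among members with a peak in both lists, the fold enrichment was higher in the Setd8-LKO list at 3 of 12 that rose and 5 of 8 that fell, against 150 of 651 and 242 of 633 over all listed genes. In the printed windows, ATAC peaks covered all 300 bases of the Jun and Klf6 windows in the WT list but 181 and 158 in the Setd8-LKO list. The Hes6 window was covered over 300 and 259 bases, that of Atf3 over 300 in both lists, and those of Sox4 and Cebpa in neither. The Setd8-LKO list as a whole was shorter, with 23386 peaks against 27307.

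No member overlapped an island of lamin A/C binding or of H4K20me3, a mark of heterochromatin, in either group. By the exact Clopper-Pearson interval used for the promoters, a count of 0 of 45 allows a share of up to 7.87%. The shares of all listed genes were 7.36% for lamin A/C and 4.93% for H4K20me3 in WT and 5.78% and 6.29% in Setd8-LKO. All lie under that limit, so these counts cannot tell the members apart from all listed genes. CTCF, the insulator protein that anchors chromatin loops, had peaks at 15 members in the WT list and 41 in the Setd8-LKO list, and the cohesin subunit Smc3 at 29 and 44. All listed genes moved in the same direction, from 16.2% to 49.6% for CTCF and from 33.9% to 63.1% for Smc3.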

How the data were processed

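Total RNA of whole mouse liver was sequenced, and the authors aligned reads with HISAT2 to mm10, counted and normalized them with metaseqR, and deposited 2 tables of selected genes with raw counts per library. The tables also hold normalized counts, a score that the authors made from 1 factor per library and rounded, and the authors' own fold changes, p-values and FDR. The deposited p-values and FDR were read only to find the number of genes tested, 18512, and 114 per-library columns were not used. For chromatin, the authors deposited 1 list per group with fold enrichment (a ratio over background) and −log10 p from MACS2 2.2.7.1, and SICER island scores. Whether replicates were pooled is not given in the sources used here.

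Raw counts of all listed genes were fitted by quasi-likelihood in edgeR 4.0.16 (R 4.3.3), with the authors' factors as offsets, filterByExpr with a minimum count of 10, and Benjamini-Hochberg adjustment over 18512 genes. DESeq2 1.42.0 and limma 3.58.1 were alternatives. Fold changes of means are ratios of normalized counts. The code was tested on simulated data. Single values were compared by exact permutation with scipy 1.17.1. Peaks shared at least 1 bp to count as kept. Intervals and limits cover counting error only. Named genes were the 10 largest rises and 10 largest falls without overlap, members of both tables, fixed liver and cell cycle factors, and members with a promoter peak in 1 list, and other members were named to complete families. Members, families, lists and motifs were chosen with earlier results of these data known. Of the other liver factors of that rule, those without an entry in the tables were not analysed here. The values of 1 member are in the counts but are not reported here.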

Additional observations from a re-analysis of the deposited data

Results flagged for a closer look

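In 10 of 100 groups of 4 or 5 libraries, the highest library lay apart from the rest by Dixon's criterion. Chance meets it in about 1 in 20 groups of independent, normally distributed values. These are rounded counts of genes that share libraries, so the 10 cannot be read against that rate. WT untreated replicate 3 was the library that lay apart for 4 genes, with normalized counts of 1698 for Egr1, 1739 for Foxq1, 297 for Myc and 66 for Fos. Setd8-LKO replicate 4, the single Setd8-LKO library of run A, was it for 3 genes, with 1848 for Atf2, 1063 for Ppara and 122 for Ppargc1b. The others were WT + TCPOBOP replicate 1 for Egr1 (151), WT untreated replicate 2 for Pparg (198) and WT untreated replicate 4 for Runx2 (23). No cause was tested.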

How the results depend on the processing

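No member reversed its direction under any alternative that was run. In Setd8-LKO + TCPOBOP against WT untreated, the 24 members called higher became 10 with size factors over the listed genes. Leaving out 1 library gave 20 to 25 higher and 8 to 13 lower, with 8 lower without WT untreated replicate 3. In WT + TCPOBOP against WT untreated, the 3 higher became 1 with size factors or TMM factors, and leaving out 1 library gave 2 to 4. The 4 lower became 8 with size factors and with DESeq2's Wald test, 9 with TMM factors and adjusted over the listed genes alone, and 1 adjusted over all GENCODE M21 genes, an alternative chosen after seeing the data. Leaving out 1 library gave 1 to 4 lower, with 2 without WT untreated replicate 1, 3 or 5 or WT + TCPOBOP replicate 1, 2 or 4, and 1 without WT + TCPOBOP replicate 5. With run as a term, 6 calls of the first comparison were lost (Nr2c1, Nfe2l2, Ppargc1a, Ppargc1b, Runx2 and Runx3) and none of the second changed. The cause was not tested.

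The replicate numbers do not pair the libraries: correlations of deviations between same-numbered libraries were -0.14 to 0.06 and -0.40 to 0.22, and 1 of 4 and 1 of 5 libraries correlated best with their own number. With a replicate block, 19 members were higher and 8 lower in Setd8-LKO, and 3 higher and 1 lower in WT + TCPOBOP.

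Counts of members with a single promoter peak that had no counterpart in the other list moved with the definitions. For H3K27ac, the 4 of the WT list became 2 within 250 bp, 8 within 2500 bp, 0 at the gene start alone and 16 with 50% reciprocal overlap, and the 5 of the Setd8-LKO list became 2, 10, 4 and 17. For ATAC, the 9 of the WT list became 4 within 250 bp and 14 with reciprocal overlap, and the 4 of the Setd8-LKO list became 2 within 250 bp, 0 at the gene start alone and 9 with reciprocal overlap. Low counts limit Egr2 and Klf5, which the count filter removed, and Cebpe in Setd8-LKO, with 5 reads in all.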
